A study of Mus musculus with 24 samples.

Results

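The distal end of the maxilla, the upper jaw, was compared between Tgfbr2 mutant and control mouse embryos of the C57B6 strain at embryonic day 14.5. The 6 arrays of that region, 3 mutant and 3 control, were chosen by their titles from the 24 arrays of the series, which hold 8 groups of 3 by genotype, jaw and end. Both genotypes came from matings of Wnt1cre;Tgfbr2 fl/+ mice with Tgfbr2 fl/fl mice. Mutants were picked by a cleft palate and a defect of the skull vault, and controls were their littermates. Every littermate of such a mating inherits at least 1 floxed allele, while the sources used here do not give each control's genotype. The dissected piece is labelled bone of the distal maxilla. Biotin-labelled copies of its total RNA were read on an Affymetrix mouse array, which reports 1 brightness value per probe set. Values are log2 RMA signals, so a difference of 1 is a doubling of the signal. Of the 18193 genes with a probe set of a single symbol, 12811 were bright enough to test.

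Tgfbr2 encodes the type II receptor of transforming growth factor beta. The receptor binds the ligand, recruits and phosphorylates the type I receptor, and signal then passes to Smad2 and Smad3, which enter the nucleus with Smad4. Wnt1-Cre acts in the neural crest lineage, which gives rise to most of the connective tissue, cartilage and bone of the jaws, while endothelium, macrophages, skeletal muscle fibres and surface epithelium come from other lineages and keep the receptor gene. In the palate this pathway is known for its roles in shelf growth and fusion, and in connective tissue for control of matrix genes.

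The dissected pieces carried the defining transcripts of jaw mesenchyme at bright and even levels. Prrx1, a homeobox factor of limb and face mesenchyme, read 13.05, 12.68 and 12.84 in mutants, against 12.75, 12.50 and 12.69 in controls. Twist1 and Pdgfra spanned 11.35 to 11.69 and 12.68 to 12.84 over the 6 arrays. Sp7 and Ibsp, an osteoblast factor and a bone matrix protein, were also present on every array, with Ibsp at 13.45, 12.58 and 13.52 in mutants, against 13.40, 12.32 and 12.94 in controls. The label of jaw bone and its mesenchyme was therefore matched by its markers, beside those of other tissues.

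The arrays did not fall cleanly by genotype. Over all tested genes, mutant 1 differed from mutants 2 and 3 by a root mean square of 0.584 and 0.555 (log2), whereas mutants 2 and 3 differed by 0.284. Mutant 2 was closer to control 2, at 0.206, than to either other mutant. Controls 1 and 3 differed by 0.193, and control 2 stood 0.412 and 0.353 from them.

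Marker lists of other tissues also differed between these arrays. Their share in the distances above was not tested. The skeletal muscle list averaged 1.07, -2.26 and -1.68 in mutants, against -1.41, -2.09 and -1.28 in controls (log2, centred on all 24 arrays), so that mutant 1 alone was high. Its defining member Tnnt2, cardiac-type troponin T of embryonic muscle, read 11.38, 6.46 and 7.67 in mutants, against 7.32, 6.55 and 7.93 in controls. The chondrocyte list averaged -1.85, 0.25 and 0.39 in mutants, against 0.74, -0.17 and 0.04 in controls, again with mutant 1 apart. Matn1, a cartilage matrix protein, was 4.97 in mutant 1 and between 9.55 and 12.20 on the other arrays. The nasal epithelium list averaged -0.41, 0.70 and 0.89 in mutants, against 1.92, 0.40 and 1.75 in controls, which placed control 2 among the mutants. The neuron list averaged 0.13, -0.10 and 0.22 in mutants, against 1.14, 0.26 and 1.15 in controls, with control 2 just above the mutants and well under the other controls. The macrophage list was highest in mutant 1, at 0.59, -0.12 and -0.19 in mutants, against 0.07, -0.22 and 0.04 in controls. No member of the muscle, cartilage, nasal or neuron list passed the limma test between genotypes. In that order, 1 of 29, 0 of 22, 6 of 13 and 6 of 24 had an unadjusted p under 0.05. Over all genes tested the share was 9.19%. Fewer cells of a type and less RNA per cell cannot be told apart in such pieces.

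**Figure D1:**
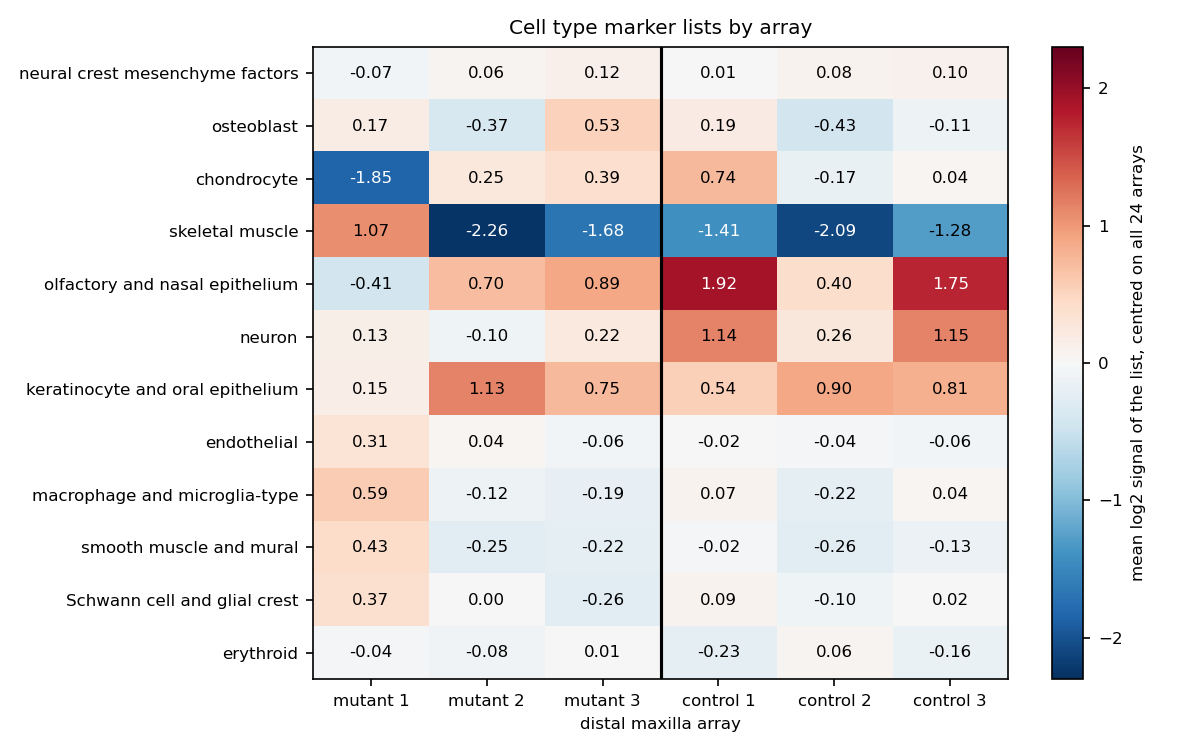
Mean log2 signal of 12 cell type marker lists (rows) on the 6 distal maxilla arrays (columns, mutants left of controls), centred on all 24 arrays and coloured from blue (low) to red (high). Mutant 1 is high for skeletal muscle (1.07) and low for chondrocytes (-1.85), and controls 1 and 3 are high for nasal epithelium (1.92 and 1.75).

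Sex-linked transcripts also varied. Xist, expressed from an inactive X chromosome, read 13.05, 12.95 and 13.22 in mutants, against 13.43, 12.97 and 6.66 in controls. The Y-linked Eif2s3y read 9.10, 9.11 and 8.29 in mutants, against 7.94, 9.20 and 10.04 in controls. The lowest values over all 24 arrays were 6.28 for Xist and 7.47 for Eif2s3y. Control 3 was near the lowest value for Xist, and control 1 was the nearest of the 6 to the lowest value for Eif2s3y. Whether a sample is 1 embryo, a litter or a pool is not stated, so the p-values cover only the spread among these arrays, which may be technical.

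The targeted gene was not lower on the mutant arrays. The brightest probe set of Tgfbr2 read 12.51, 12.20 and 12.16 in mutants, against 11.91, 11.90 and 11.89 in controls, and the groups did not overlap. The difference of 0.39 ± 0.09 (log2, SE, n = 3 per group) had an adjusted p of 0.0887 in limma with Benjamini-Hochberg adjustment. A dimmer probe set differed by 0.43 the same way, without overlap, and another lay near background. The sources used here do not name the floxed exon. A probe set outside it checks nothing about the deletion, so the mutant labels could not be checked on this gene.

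Between mutant and control distal maxilla, 25 of 12811 genes passed the threshold of adjusted p 0.05, which is 0.195%. Of these, 14 rose (0.109%) and 11 fell (0.0859%). The changes were between 1.24-fold and 2.39-fold, and 7 reached a doubling or halving of the signal. The rises held 3 matrix proteins (Sned1, Vit and Tfpi2), 3 endothelial genes (Esm1, Gpihbp1 and Adgrl4) and 3 genes of immune cells or complement (P2ry12, Cd40 and C1s1). The falls held 4 matrix genes (Fbln5, Mfap4, Adamts6 and Col8a2), the integrin subunit Itga9 and the transcription factor Erg. In all 25 the 3 mutant and 3 control values did not overlap. Over all genes tested, 1491 (11.6%) had such a separation, and 1177 (9.19%) had an unadjusted p under 0.05.

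How firmly each call stood depended on single arrays. With each of the 6 arrays left out in turn, 5 genes (P2ry12, Khk, Fbln5, Erg and Itga9) stayed past the threshold every time, and 20 lost it at least once. Without mutant 1, the array with muscle transcripts, 11 genes passed, of which 9 were among the 25. Without control 1 and without control 3 only 8 and 7 genes passed, all of them among the 25. Without control 2 the number was 61, with 18 higher and 43 lower. In a fit of the 6 arrays alone, P2ry12 was the single gene that passed.

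**Figure D2:**
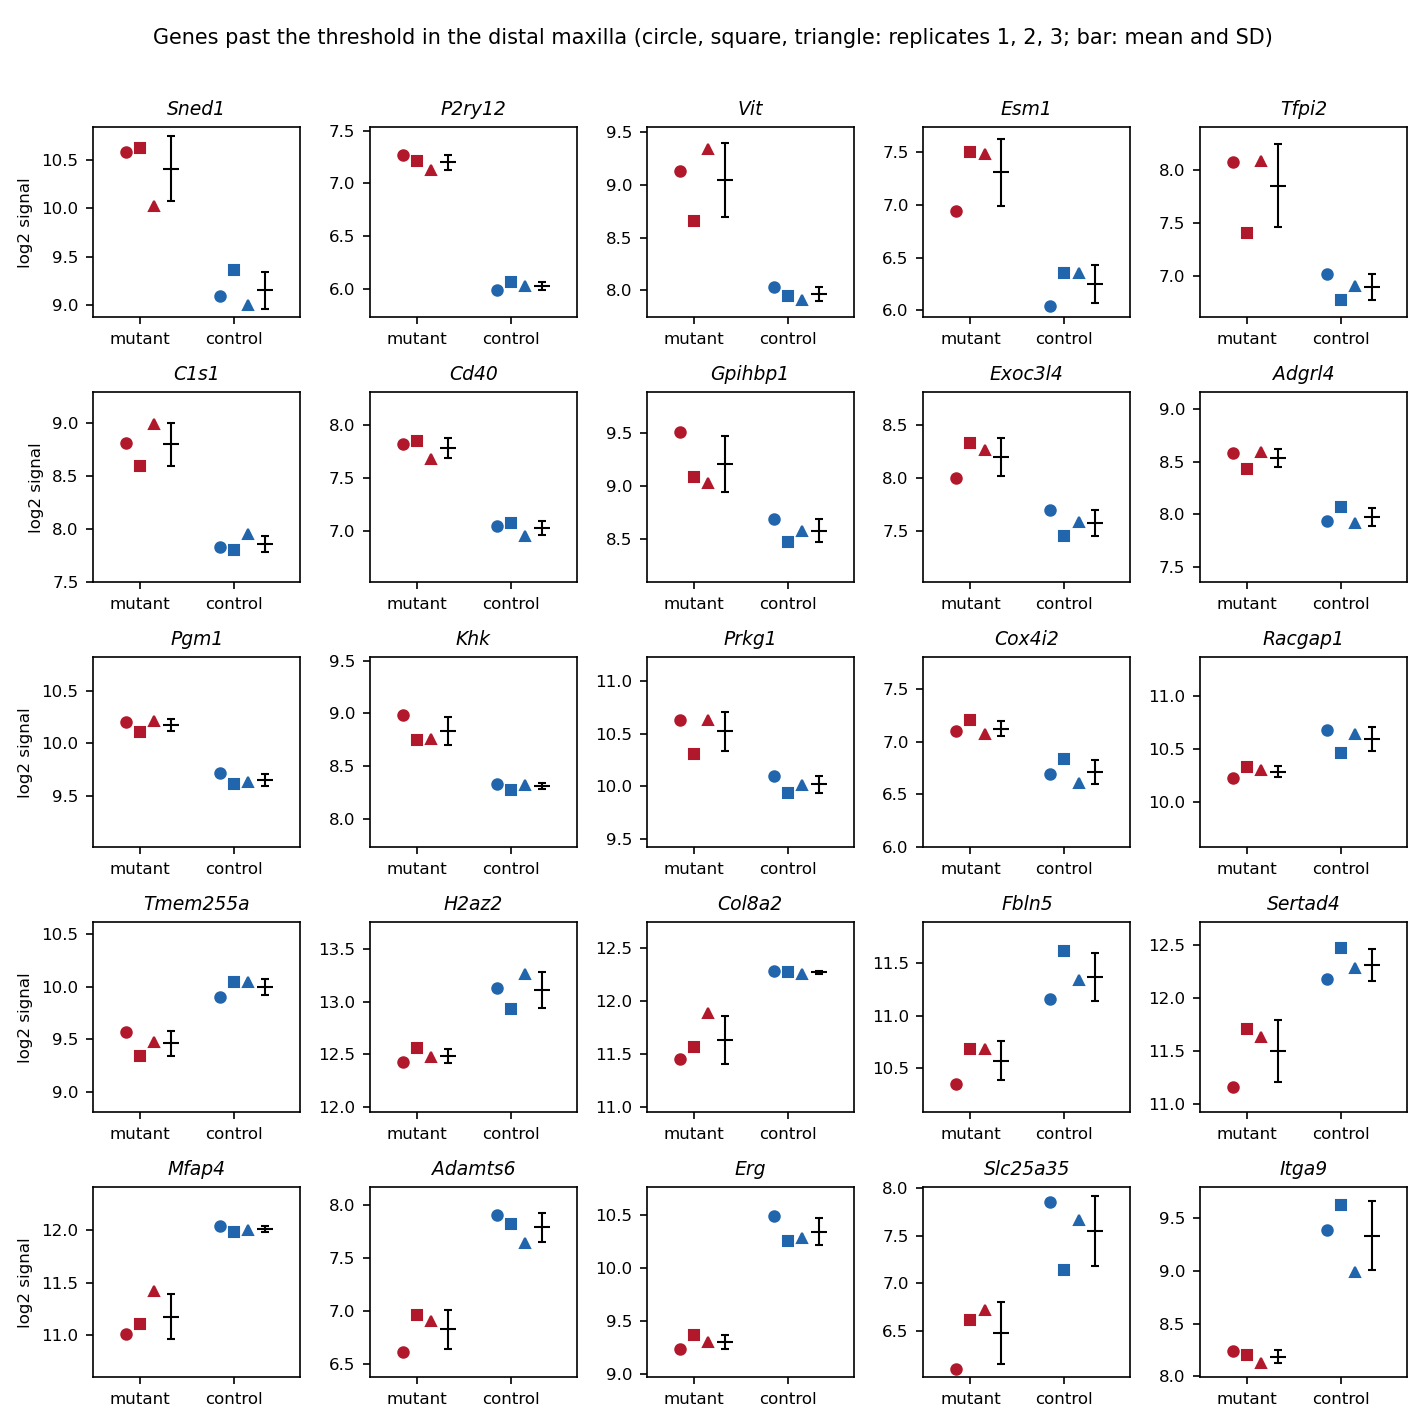
Log2 signal of the 25 genes that passed the threshold, 1 panel each, with the 3 mutant arrays (red, left) and the 3 control arrays (blue, right). Circles, squares and triangles are replicates 1, 2 and 3, black bars are the mean and SD, and in every panel the 2 genotypes are separate.

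Elastic fibre and microfibril genes supplied 2 of the falls. Fbln5, a fibulin needed for assembly of elastic fibres, read 10.36, 10.68 and 10.68 in mutants, against 11.16, 11.61 and 11.33 in controls. All mutant values lay under all control values. The fall was 1.74-fold (log2 difference -0.80 ± 0.11 SE, limma adjusted p = 0.00552, n = 3 each), and stayed past the threshold with any 1 of the 6 arrays left out. Mfap4, a glycoprotein of microfibrils, read 11.01, 11.11 and 11.42 in mutants, against 12.04, 11.98 and 11.996 in controls. It fell 1.77-fold (-0.83 ± 0.14, limma adjusted p = 0.0176). The controls were close together, and mutant 3 was the highest mutant. The call for Mfap4 ended without mutant 1 (adjusted p = 0.091 in limma), without mutant 2 (0.0575), without control 1 (0.0915) or without control 3 (0.0905).

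Of the 18 tested genes on the elastic fibre list, those 2 fell, none rose and 16 did not pass. Over all genes tested 0.0859% fell and 0.109% rose. In limma 7 of the 18 had an unadjusted p under 0.05, where 9.19% of all genes did. The list's median was -0.10, beside -0.01 over all genes tested. The fibre's core protein Eln read 10.73, 10.70 and 10.67 in mutants, against 11.27, 11.03 and 11.07 in controls, a difference of -0.42 with adjusted p = 0.134 in limma (n = 3 each). Ltbp2, a latent TGF-beta binding protein of microfibrils, read 6.85, 7.91 and 6.85 in mutants, against 7.86, 8.89 and 8.10 in controls. Its highest mutant value just exceeded its lowest control value, and the difference of -1.08 had an adjusted p of 0.145 in limma (n = 3 each).

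Other matrix and adhesion genes fell as well. Itga9, the alpha 9 integrin subunit that pairs with beta 1 and binds tenascin C and EMILIN1, read 8.24, 8.20 and 8.12 in mutants, against 9.39, 9.63 and 8.98 in controls. The mutant values were tight, and every control lay above them. The fall was 2.21-fold (-1.15 ± 0.17, limma adjusted p = 0.00721), and held with each array left out. A second probe set of Itga9 differed by -0.54 without overlap, and another, dim one by -0.06 with overlap. Adamts6, a secreted metalloprotease, read 6.61, 6.96 and 6.90 in mutants, against 7.91, 7.82 and 7.64 in controls. It fell 1.95-fold (-0.97 ± 0.16, limma adjusted p = 0.0124), its mutant mean being below the array median, where background flattens differences. That call ended without mutant 1 (adjusted p = 0.0727 in limma) or control 1 (0.0745). Col8a2, a short-chain collagen, read 11.45, 11.56 and 11.88 in mutants, against 12.28, 12.28 and 12.26 in controls. It fell 1.56-fold (-0.64 ± 0.13, limma adjusted p = 0.0407), and only without mutant 3 did it still pass when 1 array was left out, with adjusted p from 0.0604 to 0.184 otherwise.

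Promoter windows of the falling genes are shown because TGF-beta acts through Smad proteins, which are known to bind the short motif CAGAC. The RefSeq table (build GRCm38.p6) gives 250 bases before to 50 bases after each gene's start, and it held windows for 8 of the 11 genes that fell and 10 of the 14 that rose. CAGAC, or GTCTG on the other strand, was in at least 1 window of 5 of those 8 and of 3 of those 10. By window, it was in 8 of 12 (66.7%) for the falls and 4 of 15 (26.7%) for the rises, and windows of 1 gene can overlap. Of all 32851 windows in the table, 49.6% hold it. A match is a description of letters and not a binding site. The table lists several starts for some genes, and the windows printed were chosen because they hold the motif. Of the 2 Fbln5 windows, the printed one (chr12:101818435-101818734, minus strand) holds matches 199 and 15 bases before the start, and the other holds 1, 30 bases after its start. The single Itga9 window (chr9:118711442-118711741, plus strand) holds 3, all at or after the start. Of the 3 Erg windows, the printed one (chr16:95459299-95459598, minus strand) holds 1, 12 bases before the start, another holds 1, 208 bases before its start, and the last (chr16:95586544-95586843) holds none. Each is printed 5′ to 3′ along the gene, with the motif in capitals.
Fbln5: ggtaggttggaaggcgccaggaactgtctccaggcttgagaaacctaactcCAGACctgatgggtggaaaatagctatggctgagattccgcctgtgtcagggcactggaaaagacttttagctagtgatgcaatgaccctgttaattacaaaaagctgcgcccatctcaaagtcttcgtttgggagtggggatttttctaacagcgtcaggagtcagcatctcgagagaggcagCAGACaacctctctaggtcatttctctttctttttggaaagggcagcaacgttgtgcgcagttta
Itga9: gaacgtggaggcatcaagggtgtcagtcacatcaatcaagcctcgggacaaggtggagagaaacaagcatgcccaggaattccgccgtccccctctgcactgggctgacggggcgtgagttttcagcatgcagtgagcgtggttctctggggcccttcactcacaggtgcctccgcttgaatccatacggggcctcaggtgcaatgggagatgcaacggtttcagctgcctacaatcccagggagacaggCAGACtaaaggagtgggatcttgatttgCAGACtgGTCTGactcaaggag
Erg: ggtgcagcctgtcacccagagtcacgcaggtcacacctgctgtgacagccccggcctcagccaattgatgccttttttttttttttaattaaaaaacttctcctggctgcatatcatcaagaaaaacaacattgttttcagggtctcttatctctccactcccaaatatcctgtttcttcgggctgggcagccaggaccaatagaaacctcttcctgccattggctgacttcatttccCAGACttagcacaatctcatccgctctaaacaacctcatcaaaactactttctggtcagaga

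The matrix genes that rose were of another kind. Sned1, a secreted matrix protein with nidogen and EGF-like domains, read 10.59, 10.62 and 10.02 in mutants, against 9.09, 9.37 and 9.004 in controls. This was the largest change among the 25, a 2.39-fold rise (1.26 ± 0.24, limma adjusted p = 0.0376), with mutant 3 the lowest of the mutants. The call ended without mutant 1 (adjusted p = 0.125 in limma), mutant 2 (0.0991), control 1 (0.184) or control 3 (0.199). Vit, or vitrin, a matrix protein with von Willebrand A domains, read 9.13, 8.65 and 9.34 in mutants, against 8.03, 7.94 and 7.91 in controls. It rose 2.11-fold (1.08 ± 0.17, limma adjusted p = 0.00782), with the adjusted p at 0.0543 without control 3 as the only loss among the 6. Tfpi2, a serine protease inhibitor laid down in matrix, read 8.07, 7.40 and 8.08 in mutants, against 7.01, 6.77 and 6.90 in controls. The rise was 1.94-fold (0.96 ± 0.18, limma adjusted p = 0.0241), with controls below the array median, and it passed without mutant 2 but not without any other single array (adjusted p from 0.0583 to 0.126).

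Across the 37 tested members of the list of other matrix proteins and enzymes, those 3 rose, Adamts6 fell and 33 did not pass, with a median of 0.07. Over all genes tested 0.109% rose and 0.0859% fell. An unadjusted p under 0.05 in limma was reached by 11 of the 37, where 9.19% of all genes reached it. The list of 19 fibrillar and other non-cartilage collagens had no call in limma (1 with an unadjusted p under 0.05) and a median of 0.05. Col8a2, which fell past the threshold, was not on that list. Among 17 integrin subunits Itga9 was the only call in limma, and 3 had an unadjusted p under 0.05. Itgb1, the common beta 1 chain, read 11.89, 11.80 and 11.83 in mutants, against 11.55, 11.50 and 11.70 in controls, a difference of 0.25 that did not pass (adjusted p = 0.16 in limma, n = 3 each). Itga8 differed by -0.40 and Itgb3 by 0.41, each without overlap between genotypes and each short of the threshold.

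Endothelial genes changed in both directions. Erg, an ETS transcription factor of endothelium that is also known in cartilage, read 9.23, 9.37 and 9.30 in mutants, against 10.50, 10.26 and 10.28 in controls. The fall was 2.07-fold (-1.05 ± 0.15, limma adjusted p = 0.00552) and stayed past the threshold with each array left out. A second probe set differed by -0.97, also without overlap. Esm1, or endocan, a proteoglycan secreted by endothelial tip cells, read 6.94, 7.51 and 7.48 in mutants, against 6.04, 6.35 and 6.36 in controls. It rose 2.08-fold (1.06 ± 0.17, limma adjusted p = 0.0115), with controls under the array median. When single arrays were left out, its call ended only without control 1 (limma adjusted p = 0.0739). The call of Esm1 also ended in the fits of the 6 distal maxilla arrays and of the 12 maxilla arrays. Gpihbp1, which anchors lipoprotein lipase on capillary endothelium, read 9.51, 9.09 and 9.03 in mutants, against 8.69, 8.47 and 8.58 in controls. It rose 1.55-fold (0.63 ± 0.11, limma adjusted p = 0.0176), with mutant 1 the highest, and without mutant 1 the difference was 0.48 with adjusted p = 0.0727. The call also ended without control 3 (adjusted p = 0.0905). Adgrl4, an adhesion receptor of endothelium, read 8.58, 8.43 and 8.59 in mutants, against 7.94, 8.07 and 7.92 in controls, and rose 1.47-fold (0.56 ± 0.11, limma adjusted p = 0.0447). It passed without control 2 but not without any other single array (adjusted p from 0.0551 to 0.222).

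The endothelial list, which did not hold Adgrl4, had 29 tested genes, of which Esm1 and Gpihbp1 rose, Erg fell and 26 did not pass. Over all genes tested 0.109% rose and 0.0859% fell. In limma 14 of the 29 had an unadjusted p under 0.05, against 9.19% of all genes. The list's median was 0.20, and 11 members had all mutants higher, where 5.81% of all genes did. Averaged per array, the list stood at 0.31, 0.04 and -0.06 in mutants, against -0.02, -0.04 and -0.06 in controls, so mutant 1 again stood out, and without it the median was 0.03. The general vessel marker Cdh5 read 10.96, 10.66 and 10.72 in mutants, against 10.52, 10.58 and 10.47 in controls (adjusted p = 0.317 in limma, n = 3 each). Apln, the ligand apelin of tip cells, read 9.24, 9.25 and 9.37 in mutants, against 8.73, 8.89 and 8.69 in controls, without overlap, and its difference of 0.52 had an adjusted p of 0.0734 in limma (n = 3 each). The part of vessel content in the endothelial changes was not tested.

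Among genes of immune cells, P2ry12 was the 1 gene of the 25 that stayed past the threshold in every alternative that tested it. P2ry12, a purinergic receptor of microglia, some tissue macrophages and platelets, read 7.27, 7.21 and 7.13 in mutants, against 5.99, 6.07 and 6.03 in controls. It rose 2.25-fold (1.17 ± 0.16, limma adjusted p = 0.00552), passed in 18 of the 18 alternatives that tested it, and had controls below the array median. Cd40, a receptor of the TNF family on antigen-presenting and other cells, read 7.82, 7.85 and 7.68 in mutants, against 7.05, 7.07 and 6.95 in controls. The rise of Cd40 was 1.69-fold (0.76 ± 0.13, limma adjusted p = 0.0124), its other probe sets differed by 0.67 and 0.83 without overlap, and the call ended without mutant 1 (adjusted p = 0.0727), control 1 (0.0579) or control 3 (0.0905). C1s1, the complement protease C1s, read 8.82, 8.59 and 8.998 in mutants, against 7.83, 7.80 and 7.95 in controls. It rose 1.92-fold (0.94 ± 0.17, limma adjusted p = 0.0186) on a probe set of a type that can also detect near-identical copies, and it lost the call without mutant 1, mutant 3, control 1 or control 3 (adjusted p from 0.0769 to 0.104).

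Other macrophage genes did not pass with it. Of 25 tested members of the macrophage list, which did not hold Cd40, P2ry12 was the only call. In limma 4 of these members had an unadjusted p under 0.05. Over all genes tested 9.19% did, and 0.195% were called. The list's median was 0.11 and, without mutant 1, -0.09. Csf1r, the receptor that defines the lineage, read 11.89, 11.03 and 11.04 in mutants, against 11.39, 10.97 and 11.26 in controls, and the groups overlapped. P2ry13, a related receptor, read 7.13, 6.69 and 6.63 in mutants, against 6.53, 6.49 and 6.25 in controls, without overlap and short of the threshold (adjusted p = 0.462 in limma, n = 3 each). On the complement list C1s1 was the only call among 10, with a median of 0.38, or 0.06 without mutant 1. Of those 10, 3 had an unadjusted p under 0.05 in limma. Serping1, the inhibitor of C1s, read 11.12, 10.32 and 10.45 in mutants, against 10.08, 9.94 and 10.09 in controls (difference 0.59, adjusted p = 0.226 in limma, n = 3 each).

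Several metabolic and signalling genes rose by less. Khk, which phosphorylates fructose, read 8.98, 8.75 and 8.76 in mutants, against 8.33, 8.28 and 8.32 in controls, and rose 1.43-fold (0.52 ± 0.07, limma adjusted p = 0.00552). Khk was past the threshold with each array left out. Pgm1, a phosphoglucomutase that links glycogen to glycolysis, read 10.20, 10.11 and 10.21 in mutants, against 9.72, 9.62 and 9.63 in controls, and rose 1.43-fold (0.52 ± 0.09, limma adjusted p = 0.0186). Prkg1, the kinase activated by cyclic GMP, read 10.63, 10.31 and 10.63 in mutants, against 10.10, 9.94 and 10.02 in controls, and rose 1.42-fold (0.50 ± 0.09, limma adjusted p = 0.0186). Cox4i2, an isoform of a cytochrome c oxidase subunit known for its response to low oxygen, read 7.10, 7.20 and 7.07 in mutants, against 6.69, 6.83 and 6.603 in controls, a 1.33-fold rise (0.41 ± 0.08, limma adjusted p = 0.0236). Exoc3l4, a relative of an exocyst subunit, read 7.999, 8.33 and 8.26 in mutants, against 7.70, 7.45 and 7.58 in controls, and rose 1.54-fold (0.62 ± 0.12, limma adjusted p = 0.0407). The mutants were above the controls for each of the 5. Pgm1 lost the call without mutant 1, mutant 3, control 1 or control 3 (limma adjusted p from 0.0693 to 0.119), and Cox4i2 without mutant 1, mutant 2, control 1 or control 3 (0.0769 to 0.178). Prkg1 passed without mutant 2, and Exoc3l4 without mutant 1, but neither did without any other single array (limma adjusted p up to 0.104 and 0.171).

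The hypoxia and glycolysis list, which did not hold Pgm1 or Cox4i2, had no call in limma among 26 members. An unadjusted p under 0.05 was reached by 10 of them, where 9.19% of all genes reached it. The list's median was 0.24, with 24 members above 0 and 4 with all mutants higher, where 5.81% of all genes had this. Vegfa, the vascular growth factor, read 9.73, 9.92 and 10.11 in mutants, against 9.46, 9.64 and 9.68 in controls (difference 0.33, adjusted p = 0.234 in limma, n = 3 each). Aldoa, an aldolase of glycolysis, read 13.16, 13.29 and 13.32 in mutants, against 13.03, 12.87 and 13.07 in controls. Averaged per array, the list was at -0.04, 0.27 and 0.31 in mutants, against -0.02, -0.15 and 0.04 in controls, so mutant 1 lay with the controls.

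Of the remaining falls, 2 concern chromatin or cell division. H2az2, which encodes a histone H2A.Z variant, read 12.43, 12.56 and 12.47 in mutants, against 13.13, 12.93 and 13.27 in controls. It fell 1.54-fold (-0.62 ± 0.10, limma adjusted p = 0.0124), a second probe set differed by -0.80 without overlap, and the call ended without mutant 1 (adjusted p = 0.0727), control 1 (0.0739) or control 3 (0.0977). Racgap1, a GTPase regulator of the central spindle that works in cytokinesis, read 10.22, 10.33 and 10.30 in mutants, against 10.68, 10.46 and 10.64 in controls. Its fall of 1.24-fold (-0.31 ± 0.06, limma adjusted p = 0.0338) was the smallest of the 25 changes, and a second probe set differed by -0.16 with overlap. Racgap1 passed without control 2 but not without any other single array (adjusted p from 0.0501 to 0.213).

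Genes of mitosis had slightly lower values in mutants. All 24 tested members of the mitosis and spindle list had a difference below 0, with a median of -0.21, and 17 had all mutants lower, where 5.83% of all genes did. None passed the limma test, and 15 had an unadjusted p under 0.05, where 9.19% of all genes did. Racgap1, which fell past the threshold, was not on this list. Top2a, a topoisomerase of dividing cells, read 12.02, 12.23 and 12.32 in mutants, against 12.47, 12.42 and 12.51 in controls (difference -0.28, adjusted p = 0.105 in limma, n = 3 each). Mki67, the proliferation marker, read 12.04, 12.01 and 12.14 in mutants, against 12.36, 12.27 and 12.27 in controls (difference -0.24, adjusted p = 0.189). Averaged per array, the list stood at -0.25, -0.10 and -0.10 in mutants, against 0.06, 0.05 and 0.08 in controls, and without mutant 1 its median was -0.14. The replication and S phase list had 22 of 23 members below 0, a median of -0.12, 11 members with all mutants lower and no call in limma (7 with an unadjusted p under 0.05). Genes of the cell cycle are regulated together, so the members are not independent.

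Further falls had less certain roles. Sertad4, a protein with a SERTA domain, read 11.16, 11.71 and 11.63 in mutants, against 12.18, 12.47 and 12.29 in controls, and fell 1.75-fold (-0.81 ± 0.14, limma adjusted p = 0.0124). Mutant 1 was the lowest, and without it the difference was -0.64 with adjusted p = 0.0727, while without control 3 the adjusted p was 0.0688. Slc25a35, of the mitochondrial carrier family, read 6.10, 6.61 and 6.71 in mutants, against 7.85, 7.14 and 7.66 in controls, and fell 2.11-fold (-1.08 ± 0.20, limma adjusted p = 0.0213). Its call ended without mutant 1 (adjusted p = 0.105), control 1 (0.184) or control 3 (0.143), and its mutant mean was below the array median. Tmem255a, an X-linked gene for a transmembrane protein, read 9.57, 9.34 and 9.47 in mutants, against 9.90, 10.04 and 10.05 in controls. It fell 1.45-fold (-0.53 ± 0.10, limma adjusted p = 0.0186), its 3 further probe sets differed by -0.60, -0.54 and -0.55 without overlap, and control 3, the array with low Xist, was level with control 2. Its call ended without mutant 2, mutant 3, control 1 or control 3 (limma adjusted p from 0.0579 to 0.13).

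Probe sets of the same gene mostly differed in the same direction. Of the 25 genes, 11 had further probe sets, 16 in all, of which 15 differed in the same direction and 12 of those without overlap between genotypes. The exception was a probe set of Racgap1 near background. Of the further probe sets bright enough to test on their own, only those of Cd40 and Erg passed in limma. With a gene's probe sets averaged, Pgm1, Prkg1, Racgap1, Tmem255a and Itga9 no longer passed.

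The other jaw regions used other arrays of the same design, in the same fit, with 1 shared estimate of the spread per gene. The labels do not say whether pieces of different regions came from the same embryos. The calls in the 4 regions are therefore not independent of each other. Of the 14 rises, 11 were also past the threshold as rises in the proximal maxilla (where 12.2% of all genes rose), 9 in the proximal mandible (1.27%) and 4 in the distal mandible (0.273%). Of the 11 falls, 11 were past it as falls in the proximal maxilla (where 11.1% of all genes fell), 9 in the proximal mandible (3.07%) and 7 in the distal mandible (0.468%). That makes 22, 18 and 11 of the 25, none in the opposite direction, where 23.3%, 4.34% and 0.742% of all genes passed either way. The 8 genes past the threshold in all of the other 3 regions were Sned1, Vit, Fbln5, Mfap4, Itga9, Col8a2, H2az2 and Tmem255a, the first 6 of them matrix or adhesion genes. Fbln5 differed by -0.80 ± 0.11 in the distal maxilla, against -0.51 in the proximal maxilla, -1.43 in the distal mandible and -1.92 in the proximal mandible. Itga9 was more even, at -1.15 in the distal maxilla, against -0.93, -1.16 and -1.04 in those regions. Vit stood at 1.08 in the distal maxilla, against 1.04, 1.46 and 1.56.

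Other genes had uneven effects by region. Prkg1 differed by 0.50 in the distal maxilla, against 0.32 in the proximal maxilla, 0.02 in the distal mandible and 0.23 in the proximal mandible. Pgm1 stood at 0.52 in the distal maxilla, against 0.03, 0.25 and 0.44 in the same order, and Slc25a35 at -1.08, against -1.27, 0.09 and -0.28. Adgrl4 was past the threshold elsewhere only in the proximal maxilla, at 0.42, against 0.56 in the distal maxilla. None of the 25 passed the limma test that its effect in the distal maxilla differed from that in the proximal maxilla, in the distal mandible or in the mean of the other regions (3, 8 and 7 of the 25 had an unadjusted p under 0.05), so no change is shown to be particular to the distal maxilla.

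**Figure D3:**
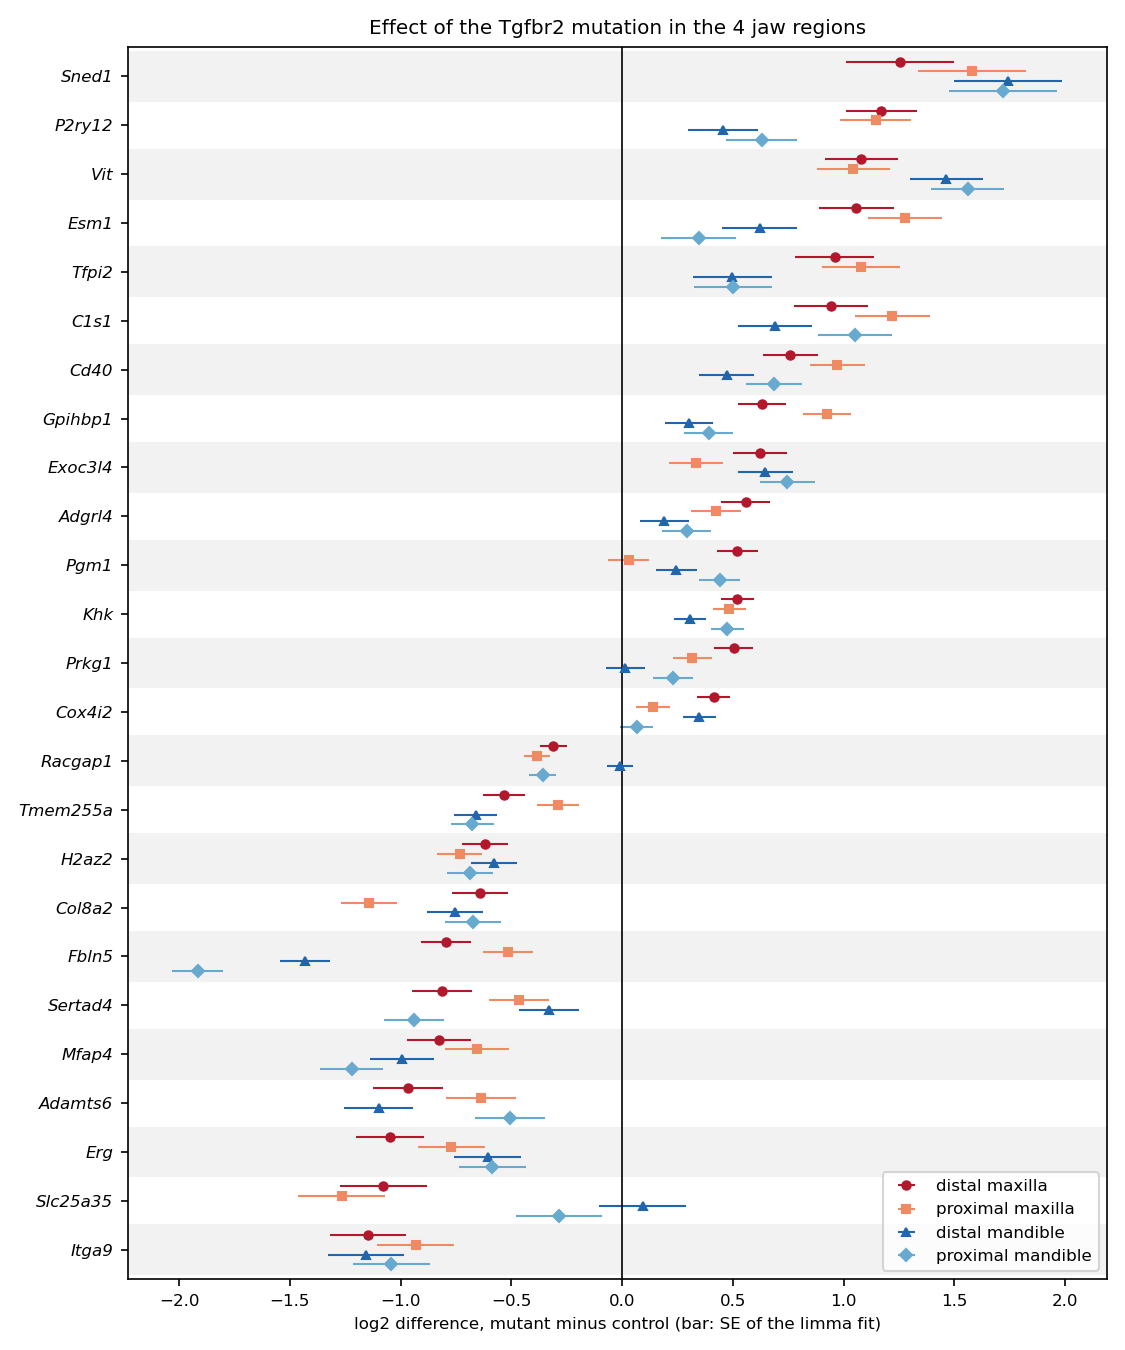
Log2 difference, mutant minus control, with the SE of the fit, for the 25 genes (rows) in the distal maxilla and the other 3 jaw regions. Fbln5 differs most in the proximal mandible (-1.92), whereas Itga9 lies between -0.93 and -1.16 in all 4 regions.

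Tests of the difference between regions named 3 genes over all 12811. Angptl1, a secreted angiopoietin-like protein, read 8.95, 8.95 and 8.87 in mutant distal maxilla, against 8.85, 8.84 and 8.61 in control distal maxilla. In the distal mandible it read 8.71, 8.96 and 8.68 in mutants, against 10.44, 10.48 and 10.53 in controls. The mutant effect was 0.16 ± 0.13 in the distal maxilla and -1.69 ± 0.13 in the distal mandible, and the difference of 1.85 ± 0.19 had an adjusted p of 0.000104 in limma. It was 1 of 2 genes past that test (0.0156%). Angptl1 was also the single gene (0.00781%) whose effect differed from the mean of the other 3 regions, by 1.23 ± 0.15 (limma adjusted p = 0.00231). That mean joins unlike regions, with effects of -0.08 in the proximal maxilla and -1.45 in the proximal mandible. The effects at the 2 ends of the maxilla were not shown to differ (0.23 ± 0.19, limma adjusted p = 0.724). The result is thus not particular to the distal maxilla. The control mean was 8.77 ± 0.14 in the distal maxilla and 10.48 ± 0.04 in the distal mandible (SD, n = 3 each), whereas the mutant means were 8.92 and 8.79.

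Tgfbi, a matrix protein named for its induction by TGF-beta, was the other gene of that test. It read 11.62, 11.96 and 11.40 in mutant distal maxilla, against 11.01, 11.37 and 11.15 in control distal maxilla, a difference of 0.49 that did not pass by itself (limma adjusted p = 0.18). In the distal mandible the values were 10.34, 10.80 and 10.54 in mutants, against 11.52, 11.34 and 11.22 in controls, a difference of -0.80. The effects differed by 1.28 ± 0.19 (limma adjusted p = 0.0134), and the call ended without distal maxilla control 1 or 3, distal mandible control 1, or distal mandible mutant 1 or 3, each of which left Angptl1 as the 1 gene called. In the proximal maxilla Tgfbi rose by 0.56 (limma adjusted p = 0.00622), with no difference shown from the distal maxilla (limma adjusted p = 0.961). In the proximal mandible its difference was -0.12.

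Krt25, an epithelial keratin, was the only gene (0.00781%) whose effect differed between the ends of the maxilla. It read 7.68, 4.82 and 4.64 in mutant distal maxilla, against 8.28, 6.07 and 7.41 in control distal maxilla. In the proximal maxilla it read 8.13, 10.26 and 8.93 in mutants, against 4.42, 4.44 and 5.24 in controls. The effects of -1.54 and 4.41 differed by -5.95 ± 0.90 (limma adjusted p = 0.0406). In the distal and proximal mandible the highest Krt25 value was 4.52, near the floor of the array. The call ended without distal mutant 2 (adjusted p = 0.0752), distal mutant 3 (0.146), distal control 1 (0.0917), distal control 3 (0.0902), proximal control 1 (0.197) or proximal mutant 2 (0.162).

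**Figure D4:**
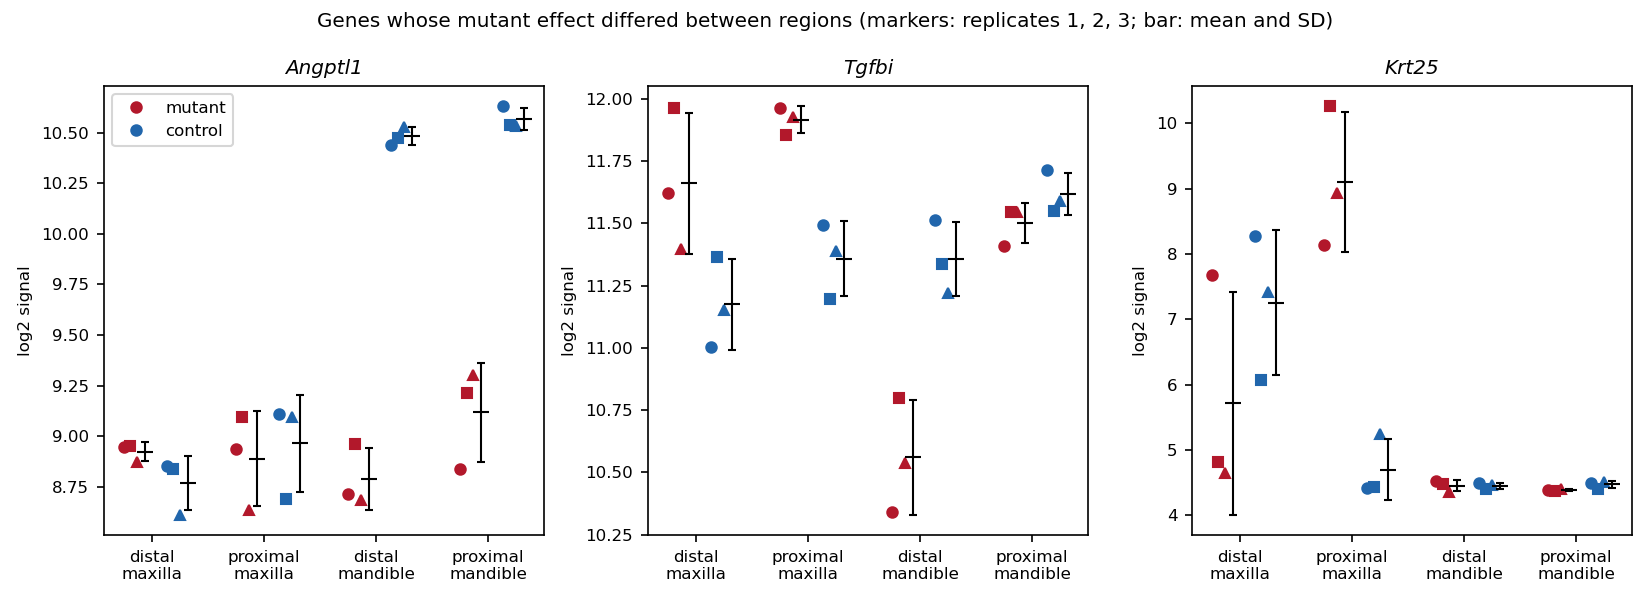
Log2 signal of Angptl1, Tgfbi and Krt25 in the 4 jaw regions, with mutants (red) left of controls (blue) in each region, points for replicates 1, 2 and 3, and bars for the mean and SD. The mutants and controls of Angptl1 are close in the distal maxilla and apart in the distal mandible, where controls read 10.44 to 10.53.

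The signalling pathway itself had no call in the distal maxilla. Of the 14 tested ligands and receptors none passed in limma, with a median of 0.07. An unadjusted p under 0.05 was reached by 5 of them, where 9.19% of all genes reached it. Eng, a co-receptor rich in endothelium, read 10.50, 10.46 and 10.34 in mutants, against 10.14, 10.11 and 10.17 in controls (difference 0.30, adjusted p = 0.105 in limma, n = 3 each). Tgfb2, a ligand, read 11.99, 12.25 and 12.28 in mutants, against 11.77, 11.999 and 11.84 in controls, and the lowest mutant fell just under the highest control. The 12 genes of latent TGF-beta storage and activation had a median of -0.09, and the 15 Smads and co-regulators one of 0.01, each with 1 member under an unadjusted p of 0.05. Smad7, the inhibitory Smad that the pathway induces, read 9.08, 9.51 and 9.80 in mutants, against 9.55, 9.78 and 9.63 in controls, with overlap.

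Among 29 genes known as TGF-beta responses none passed in limma (6 with an unadjusted p under 0.05), and the median was -0.04. Pmepa1, a membrane inhibitor that the pathway induces, read 9.62, 9.73 and 9.81 in mutants, against 10.07, 9.93 and 10.13 in controls, a difference of -0.32 (adjusted p = 0.0988 in limma, n = 3 each). Snai2, a zinc finger factor of mesenchyme, read 12.45, 12.51 and 12.42 in mutants, against 11.997, 12.23 and 12.13 in controls, a difference of 0.34 (adjusted p = 0.0876). Both were without overlap, in opposite directions, and short of the threshold.

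Other pathways also had no call. The medians were 0.07 for 19 BMP genes, 0.06 for 27 Wnt genes, 0.06 for 15 hedgehog genes and 0.04 for 15 FGF genes, beside -0.01 over all genes. In limma 3, 4, 1 and 2 members of these lists had an unadjusted p under 0.05, where 9.19% of all genes did. Dkk2, a secreted Wnt modulator, read 12.27, 11.41 and 11.47 in mutants, against 10.66, 11.28 and 10.88 in controls, and Frzb, a Wnt antagonist, read 11.71, 10.58 and 11.60 in mutants, against 10.56, 10.14 and 10.20 in controls. Both pairs of groups were separate by a narrow margin (adjusted p = 0.159 and 0.28 in limma). Bmp5, a BMP ligand, read 8.46, 10.17 and 10.17 in mutants, against 10.28, 10.62 and 10.23 in controls, with mutant 1 far under the other arrays (difference -0.78, adjusted p = 0.527 in limma).

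Transcription factors of the palate shelf had 18 tested members and no call in limma (2 with an unadjusted p under 0.05), with a median of 0.19. Differences were above 0 for 12 of the 18, and the lowest were those of Tfap2b (-0.83) and Alx1 (-0.35). Tbx22, a T-box factor whose loss causes cleft palate in mouse and human, read 7.79, 7.84 and 9.15 in mutants, against 6.52, 6.26 and 7.42 in controls. The genotypes did not overlap, but each was spread, and the difference was 1.52 (adjusted p = 0.234 in limma, n = 3 each). Shox2, a homeobox factor of the anterior palate, read 11.95, 11.59 and 11.47 in mutants, against 10.62, 10.96 and 10.59 in controls, a difference of 0.94 (adjusted p = 0.163). Osr2, a zinc finger factor of the shelves, read 10.52, 10.92 and 10.63 in mutants, against 10.12, 10.39 and 10.32 in controls, a difference of 0.42. The 22 factors of neural crest mesenchyme had a median of -0.04. Of them 21 overlapped between genotypes, whereas 11.6% of all genes tested did not overlap.

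**Figure D5:**
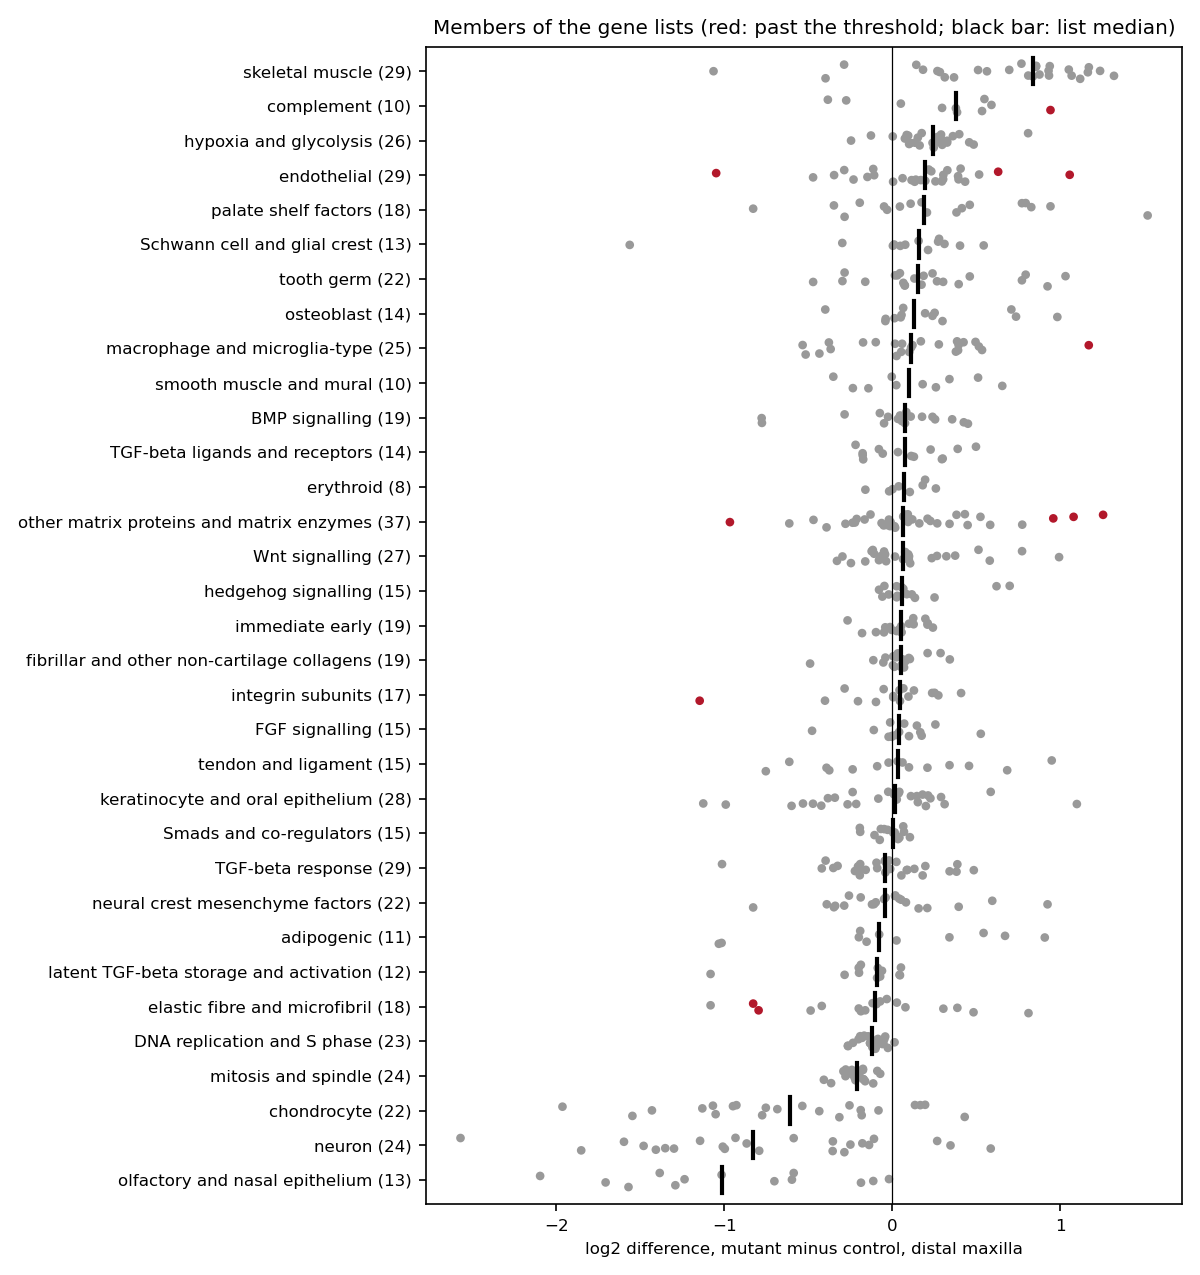
Log2 difference, mutant minus control, of every tested member (points) of 33 gene lists (rows, with the number of members), with the list median as a black bar and members past the threshold in red. The mitosis points lie close together and all under 0, while the muscle, cartilage, neuron and nasal lists are wide and hold no red point.

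Differentiation lists were spread widely and had no call in limma. An unadjusted p under 0.05 was reached by 0 osteoblast, 2 tendon, 0 chondrocyte, 1 muscle and 0 keratinocyte genes. The 14 osteoblast genes had a median of 0.13, and Dmp1, an osteocyte matrix protein, read 12.03, 10.38 and 12.49 in mutants, against 11.81, 10.06 and 10.90 in controls. The 15 tendon and ligament genes had a median of 0.03. The median of the 22 chondrocyte genes was -0.61, but 0.09 without mutant 1, and that of the 29 muscle genes was 0.84, but -0.36 without mutant 1. The 28 keratinocyte genes had a median of 0.02.

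Large differences without overlap also occurred among genes that missed the threshold. After Tbx22, those with higher values in mutants were Trhr (1.18), Krt13 (1.10), Cdh9 (1.09), Grm3 (1.09) and Fam162b (1.08), with adjusted p in limma from 0.077 for Cdh9 to 0.666 for Krt13. Trhr rests on mutant 1, at 7.27, 4.31 and 4.32 in mutants, against 4.28, 4.01 and 4.08 in controls. Those with lower values in mutants were Sult1c1 (-2.40), Il33 (-1.69), Soga3 (-1.58), Ttll7 (-1.49), Elavl4 (-1.48) and Serpinb7 (-1.40). Sult1c1, a cytosolic sulfotransferase, read 4.37, 6.11 and 5.50 in mutants, against 8.95, 6.22 and 7.999 in controls (adjusted p = 0.0909 in limma, n = 3 each). Control 2 was level with the mutants there, as on the nasal list. Il33, a cytokine of the interleukin 1 family, read 7.12, 7.68 and 6.53 in mutants, against 8.96, 8.52 and 8.92 in controls (adjusted p = 0.189), and its controls were tight. The neuronal gene Elavl4 read 8.82, 8.63 and 9.20 in mutants, against 10.75, 9.31 and 11.03 in controls, with control 2 nearest to the mutants.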

How the data were processed

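The authors deposited a log2 value for each probe set on each array. Per the submitters' processing notes the authors used RMA and Partek 6.6, while the sources used here give neither settings nor a genome build. That the deposited values are log2 was read from their range, 3.44 to 14.8. No further normalization was applied. Probe sets were named by the platform annotation and checked by Entrez identifier against RefSeq (GRCm38.p6, 34754 of 34958 single-symbol probe sets matched). Each gene was represented by its brightest probe set (mean of 24 arrays), and tested if it exceeded the median of its array on 3 or more arrays. The fit was limma 3.58.1 in R 4.3.3 (lmFit, eBayes, two-sided, Benjamini-Hochberg over 12811 genes, threshold 0.05) on all 24 arrays in 8 groups, so all groups share 1 estimate of the spread. The fit was also run on simulated data with independent normal noise and arrays of equal quality. That run cannot speak for data in which single arrays stand apart, as here. The number of arrays limits the precision, and the median SE was 0.106 (log2). Named were all genes past the threshold, Tgfbr2, the 6 largest differences each way without overlap that missed it, the interaction genes, and list members with the smallest unadjusted p. The 33 gene lists and the members were chosen with earlier results of these data known. Lists are described by counts and medians, with no test. Alternatives changed the arrays in the fit, the variance model, filter, probe set rule, normalization, blocks and covariates, or left out arrays.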

Additional observations from a re-analysis of the deposited data

Results flagged for a closer look

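Each result here was singled out because the mutant effect in the distal maxilla differed from that in another region by an interaction test in limma. Krt25 differed between the distal and proximal maxilla by -5.95 (adjusted p = 0.0406), with the distal mutant arrays themselves at 7.68, 4.82 and 4.64. Angptl1 differed between the distal maxilla and the distal mandible by 1.85 (adjusted p = 0.000104). The same gene differed between the distal maxilla and the mean of the other 3 regions by 1.23 (adjusted p = 0.00231). Its effect in the proximal maxilla was -0.08, with no difference shown from the distal maxilla (limma adjusted p = 0.724). Tgfbi differed between the distal maxilla and the distal mandible by 1.28 (adjusted p = 0.0134). In the proximal maxilla Tgfbi rose past the threshold (0.56, limma adjusted p = 0.00622).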

How the results depend on the processing

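No alternative reversed the direction of any of the 25 genes, but most could not have. Leaving out or weighting arrays keeps the sign where the genotypes do not overlap. Changes of the variance model, filter, blocks or arrays of other regions leave the difference itself as it was. Only quantile normalization anew, averaging of probe sets and covariates could have reversed a direction. The count of 25 became 1 with only the 6 arrays in the fit, 9 with only the 12 maxilla arrays, 564 with array weights (210 higher, 354 lower), 40 after quantile normalization anew and 70 without both mutant 1 and control 2 (26 higher, 44 lower, 14 shared with the 25). Leaving out 1 array each gave 7 to 61. With the replicate number as a fixed block the count was 80 and included all 25. With genotype and number as a random block (estimated correlation 0.342) it was 17, of which 14 were among the 25, and Sned1, Tfpi2, C1s1, Exoc3l4, Adgrl4, Pgm1, Prkg1, Cox4i2, Tmem255a, Col8a2 and Slc25a35 were lost. Same-numbered mutant and control arrays deviated together with correlations of 0.095, 0.350 and 0.197. Those with different numbers stood at -0.316, -0.244, -0.227, -0.086, 0.032 and, for control 1 with mutant 3, 0.192. The labels do not say that the numbers pair the samples, and the main fit did not pair them. Whether same-numbered arrays share a source was not tested. The test against the proximal maxilla named 1 gene, but 0 in limma with only the 12 maxilla arrays, with every probe set on its own, after quantile normalization anew, under the replicate block or with nasal and muscle covariates, against 5 without the filter, 137 with a random block, 285 without both arrays, 2414 with array weights and 0 to 652 with 1 array left out (428 without distal mutant 1, 652 without proximal mutant 3). The test against the distal mandible named 2 genes, but 51 with array weights, 4 under the replicate block, 6 with a random block, 9 with covariates, 4 without both arrays and 1 to 4 with 1 array left out. Tgfbi was lost without distal maxilla control 1 or 3, distal mandible control 1, or distal mandible mutant 1 or 3. The test against the mean of the other regions named 1 gene, but 15 with array weights, 13 without both arrays and 1 to 3 with 1 array left out. Of 594 list medians recomputed, 24 moved by more than the SD of the list's array means within genotypes. That SD includes the spread due to mutant 1, so a change of sign could count as unmoved. The macrophage median took the other sign in 5 alternatives and the chondrocyte median in 2 (range -0.92 to 0.28), none counted as moved. The medians of the mitosis, elastic fibre and nasal lists kept their sign throughout. The causes were not tested.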
